A study of Mus musculus with 2 samples.

Results

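A set of 9 genes that many cells switch on within minutes of a stimulus is described here by open chromatin in the mouse adrenal gland, out of the 21911 protein-coding genes of the GENCODE vM21 basic annotation. They were taken by name and are the nuclear receptor genes Nr4a1, Nr4a2 and Nr4a3, the zinc finger genes Egr1, Egr2, Egr3 and Egr4, and the genes Ier2 and Btg2. Chromatin was mapped by DNase-seq, in which nuclei are treated with DNase I, an enzyme that cuts accessible DNA, and the released ends are sequenced. The tissue was the whole adrenal gland of male B6CASTF1/J mice with no treatment on the labels, first-generation offspring of C57BL/6J and CAST/EiJ parents, with ages of 8 to 10 months on the labels. There was 1 group, given as biological replicates 1 and 2, each a single library from a pool of 6 gland samples. Both pools carry the same donor identifier and the labels do not say how many animals stand behind them, so the spread between the pools may be partly technical. No stimulated or control group was part of the series, and a gland collected without a recorded stimulus shows where chromatin was open, not whether a gene was being transcribed.

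Immediate early genes are transcribed without waiting for new protein, through transcription factors that are already in the nucleus. Signals that raise cAMP act on CREB at cAMP response elements (CREs), and growth factor and calcium signals act on serum response factor, SRF, at CArG boxes. Their products are mostly transcription factors in turn: NR4A receptors bind a half-site called the NBRE, and EGR proteins bind a GC-rich site of their own. In the adrenal cortex the pituitary hormone ACTH signals through cAMP and induces Nr4a genes, and NR4A factors act on genes of steroid synthesis. In the chromaffin cells of the medulla, EGR1 is known as a regulator of Pnmt, which encodes the last enzyme of adrenaline synthesis.

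Peaks numbered 117371 in replicate 1 and 146307 in replicate 2, and footprints, short protected stretches within cleaved chromatin, numbered 272595 in replicate 1 and 319381 in replicate 2. Overlapping peaks were merged into 96584 regions shared by both pools. The signal, the authors' value for each peak, has no stated scale, so the depth of the libraries is unknown. Replicate 2 had more signal than replicate 1 in 83.4% of shared regions, with a median log2 ratio of 0.35 (SD over regions 0.37). All 7 markers of the cortex and all 6 of the medulla had a promoter peak in both pools, against 61.9% of all protein-coding genes. Of other cells, 2 of 4 markers of endothelium, 1 of 4 of macrophages, 1 of 4 of kidney tubule and 1 of 3 of adipocytes had one. Those that had one included Plin1, a lipid droplet coat gene listed here for adipocytes, with 2.71 in replicate 1 and 3.09 in replicate 2. The rest of these were Cd68 with 1.14 and 1.26, Kdr with 0.884 and 1.07, Cdh5 with 1.05 and 0.775, and Lrp2 with 0.216 and 0.192. Plin1 was thus at the level of Egr3 and Nr4a2, while Csf1r, Umod and Adipoq had no promoter peak in either pool. Tek, of endothelium, had one in replicate 2 alone, of 0.536, and Ptprc, of macrophages, one in replicate 1 alone, of 0.2675. The part of such cells in the results below was not tested.

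Promoters of 8 of the 9 genes were open in both pools, and that of Egr4 was nearly closed. A promoter peak, one that lies within 1 kb of a transcription start site (TSS) of the gene, was present in both pools at 8 of 9 genes, against 61.9% of all protein-coding genes. In replicate 1 alone the count was 8 of 9 (62.9% of all genes) and in replicate 2 alone 9 of 9 (65.3%). The highest promoter peak of the 8 genes had a median signal of 5.60 over genes (mean of the pools), against 3.54 over all genes with a promoter peak in both pools. Of the 8 genes, 6 were above that value, and 2, Egr3 and Nr4a2, were below it. In bulk tissue, fewer cells with an open promoter and a less open promoter in each cell cannot be told apart.

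In order of promoter signal, Btg2 came first, at 8.97 in replicate 1 and 10.98 in replicate 2 (9.97 ± 1.42, SD, n = 2). Egr1 followed at 7.77 and 8.12 (7.94 ± 0.252, SD, n = 2). Ier2 had 6.11 and 7.85 (6.98 ± 1.23, SD, n = 2). These genes, with Nr4a1, formed an upper group that lay between percentiles 79.6 and 91.9 of genes with a promoter peak in both pools. Nr4a1 had 6.27 and 7.68 (6.98 ± 0.997, SD, n = 2). Nr4a3 had 3.69 and 4.75 (4.22 ± 0.751, SD, n = 2) and Egr2 had 3.21 and 3.94 (3.58 ± 0.517, SD, n = 2). Both were near the middle of all genes, at percentiles 57.1 and 50.5. Egr3 had 2.71 and 3.01 (2.86 ± 0.213, SD, n = 2). Nr4a2 had 2.50 and 3.15 (2.83 ± 0.456, SD, n = 2), 3.53 times less than Btg2 by the means. Egr4 had no promoter peak in replicate 1 and one of signal 0.336 in replicate 2, the weakest promoter value of the set.

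All 8 genes with a peak in both pools had the higher value in replicate 2, by log2 ratios between 0.06 for Egr1 and 0.37 for Nr4a3, against a median of 0.38 over all genes with a promoter peak in both pools. The ranges of the pools did not overlap between 3 of the 7 neighbouring pairs in this order: Btg2 and Egr1, Nr4a1 and Nr4a3, and Egr2 and Egr3. They overlapped between the other 4 pairs: Egr1 and Ier2, Ier2 and Nr4a1, Nr4a3 and Egr2, and Egr3 and Nr4a2. These ranges include the shift towards replicate 2 that all 8 genes shared, so an overlap does not mean that the order changed between pools. The ranges of Egr1 and Nr4a1 themselves, 7.77 to 8.12 and 6.27 to 7.68, did not overlap. Within each pool the order was the same apart from Ier2 with Nr4a1 and Egr3 with Nr4a2, which changed places. Egr1 was thus above Ier2, and Nr4a3 above Egr2, in both pools. Adding up all promoter peaks of a gene gave a median of 9.13 in place of 5.60 and put Egr1, at 22.6, ahead of Btg2, at 13.2. Using the 5' end of the gene record in place of all annotated TSSs gave a median of 3.69, with Nr4a1 at 3.17, Nr4a2 at 2.04 and Egr2 at 1.31.

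**Figure D1:**
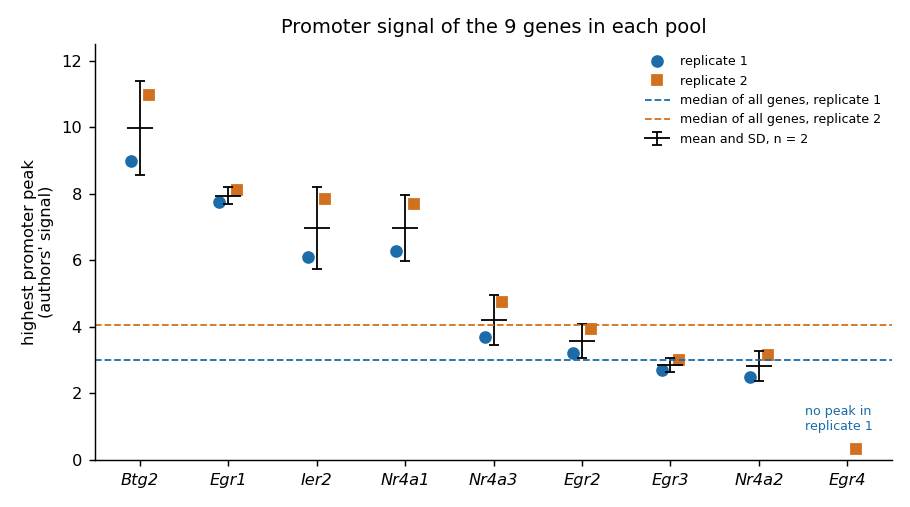
Highest promoter peak of each gene (authors' signal, linear axis from 0) in replicate 1 (circles) and replicate 2 (squares), with the mean and SD of the 2 pools in black and, as a dashed line for each pool, the median of all genes that have a promoter peak in both. Btg2, Egr1, Ier2 and Nr4a1 lie above both lines in both pools, and Egr4 has a peak of 0.336 in replicate 2 alone.

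**Figure D2:**
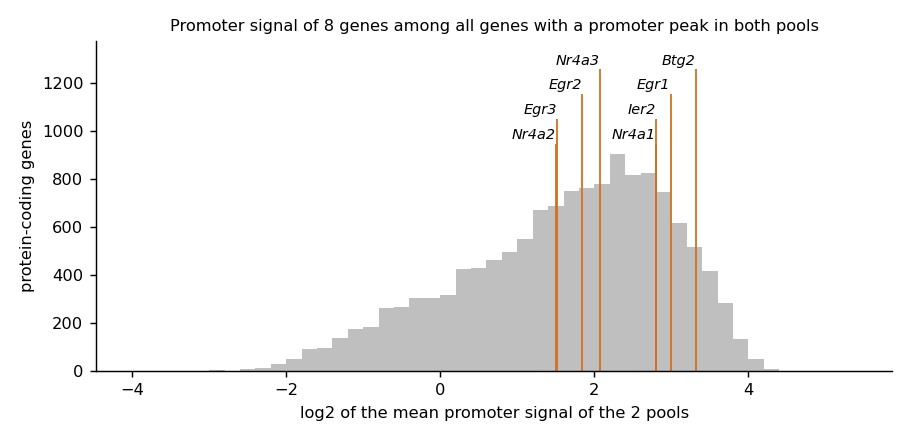
Histogram of the log2 mean promoter signal of the 13562 protein-coding genes with a promoter peak in both pools, with 8 of the 9 genes marked by orange lines. The 8 genes fall between percentile 41.2 (Nr4a2) and percentile 91.9 (Btg2), and Egr4 is not drawn because it has no promoter peak in replicate 1.

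The deposited false discovery rates (FDR) gave another view of the same promoters, by length. At Ier2, 1307 bp in replicate 1 and 1688 bp in replicate 2 of the 2001 bp within 1 kb of its TSS had an FDR of 0.001 or less. At Egr1 the lengths were 1810 bp and 1983 bp of 3385 bp around 2 TSSs. At Btg2 they were 562 bp and 866 bp of 2001 bp, so the gene with the highest peak did not have the widest open promoter. Egr3 had 325 bp and 261 bp of 2112 bp and was the only one of the 8 genes whose length at this limit was smaller in replicate 2. At an FDR of 0.05 that of Egr1 was smaller too, 2405 bp in replicate 1 and 2324 bp in replicate 2. At Egr4, 0 bp in replicate 1 and 90 bp in replicate 2 of 2001 bp passed, and in replicate 1 no base passed even an FDR of 0.05. Over all genes with a promoter peak in both pools the median was 27.9% of promoter bases in replicate 1 and 35.7% in replicate 2.

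The 3 NR4A receptors differed in how many promoters and neighbouring regions were open. Nr4a1 (also called NUR77; ENSMUSG00000023034.7, chromosome 15, 101254269 to 101274795 on mm10, plus strand) has 2 annotated TSSs. Its main open promoter lay over the downstream one, in a region from 101266541 to 101266920 with 6.27 and 7.68. A weaker one, from 101253921 to 101254200 with 2.97 and 3.37, lay before the upstream TSS. Nr4a2 (NURR1; ENSMUSG00000026826.13, chromosome 2, 57106830 to 57124003, minus strand) has 3 TSSs and had 5 shared promoter regions, the most of the 9 genes. The strongest of them, 57114881 to 57115160 with 2.50 and 3.15, covered the middle TSS at 57115038, and the one before the outermost TSS, 57124081 to 57124380, had 1.77 and 2.32. Nr4a3 (NOR1; ENSMUSG00000028341.9, chromosome 4, 48045153 to 48086447, plus strand) has 1 TSS. A pair of neighbouring regions there had 3.69 and 4.75 over the TSS, and 3.49 and 3.73 with a midpoint at -412 bp.

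The sequences before these starts are shown because CRE letters recur in all 3. Each is written 5' to 3' on the strand of the gene, with the letters of a CRE (TGACGTCA), its half-site (TGACG or, on the other strand, CGTCA) or an EGR site (GCGNGGGCG) in capitals. Those of Nr4a1 (chr15:101266596-101266845, plus strand) and Nr4a3 (chr4:48045055-48045152, plus strand) are from the RefSeq promoter windows on GRCm38.p6, the build of mm10. That of Nr4a2 (chr2:57115039-57115160, minus strand) is the part of its strongest promoter region that lies before the middle TSS, read from the GRCm38.p6 genome. All are reference bases of C57BL/6J, whereas one parent of these F1 mice was CAST/EiJ.
Nr4a1 promoter: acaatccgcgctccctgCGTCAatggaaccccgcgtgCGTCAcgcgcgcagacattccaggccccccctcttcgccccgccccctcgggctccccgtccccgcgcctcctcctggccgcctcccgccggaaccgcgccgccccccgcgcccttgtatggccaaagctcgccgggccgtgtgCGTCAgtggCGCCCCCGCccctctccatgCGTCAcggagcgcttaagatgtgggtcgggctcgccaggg
Nr4a2 promoter: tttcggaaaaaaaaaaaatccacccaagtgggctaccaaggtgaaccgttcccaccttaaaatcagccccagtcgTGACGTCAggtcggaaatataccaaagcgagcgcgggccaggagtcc
Nr4a3 promoter: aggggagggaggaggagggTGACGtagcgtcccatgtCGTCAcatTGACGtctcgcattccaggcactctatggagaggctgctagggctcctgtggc

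In Nr4a1 the window holds 4 half-sites, at -231, -211, -67 and -38 bp from the TSS, and an EGR site at -56 bp. The EGR site, the letters that EGR proteins bind, lay whole inside a footprint in both pools, of 22 bp in replicate 1 and 16 bp in replicate 2. None of the half-sites lay under a footprint in both pools. In Nr4a2 a whole CRE is centred at -44 bp from the middle TSS, and a footprint touched it in both pools, covering 7 of its 8 bases in replicate 1 and 4 in replicate 2. In Nr4a3 there is no whole CRE, but 3 half-sites at -77, -59 and -51 bp from the TSS each overlapped a footprint in both pools. A match of letters describes the sequence and does not show which protein sat there.

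Around Nr4a1, from 50 kb upstream to 50 kb downstream of the gene body, 25 peaks in replicate 1 and 34 in replicate 2 gave 20 shared regions, the most of the 9 windows. Of these, 2 were in its own promoters, 7 in promoters of other genes (Grasp, AU021063, Atg101 and Gm49499) and 11 were distal, that is, over 1 kb from every annotated TSS. The strongest one outside its promoters was distal, on chromosome 15 from 101246261 to 101246620, with its midpoint at -7828 bp from the upstream TSS and the nearest TSS that of Nr4a1. Its signal of 8.01 and 8.75 was higher than that of the promoter in both pools and stood at percentile 98.2 of all shared regions. Another distal region at +12965 bp from the downstream TSS, 101279621 to 101280000, had 7.31 and 6.33 and was lower in replicate 2, unlike most. The nearest TSS to that one was of Atg101, an autophagy gene, and openness does not assign either region to a gene.

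The central 300 bases of both regions are shown (GRCm38.p6 genome, plus strand, chr15:101246291-101246590 upstream and chr15:101279661-101279960 downstream), since both carry motif letters under footprints. Other regions of the window, its promoters among them, held such letters too. Capitals also mark AP-1 sites (TGANTCA), which Fos and Jun dimers bind.
Nr4a1 upstream region: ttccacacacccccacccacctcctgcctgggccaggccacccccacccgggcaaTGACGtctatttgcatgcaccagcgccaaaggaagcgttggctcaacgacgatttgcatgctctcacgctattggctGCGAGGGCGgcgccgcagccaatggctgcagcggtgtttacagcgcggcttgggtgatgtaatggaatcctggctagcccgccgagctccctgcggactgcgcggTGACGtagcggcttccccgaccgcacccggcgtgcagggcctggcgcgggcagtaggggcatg
Nr4a1 downstream region: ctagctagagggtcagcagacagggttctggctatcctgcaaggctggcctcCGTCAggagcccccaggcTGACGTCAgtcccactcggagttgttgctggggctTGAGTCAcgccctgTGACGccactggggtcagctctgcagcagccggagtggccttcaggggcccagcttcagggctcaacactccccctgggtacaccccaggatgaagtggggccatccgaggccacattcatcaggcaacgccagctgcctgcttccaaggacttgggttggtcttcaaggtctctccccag

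The upstream region holds 2 CRE half-sites with an EGR site between them, and each of the 3 matches overlapped a footprint in both pools. In the downstream region the whole CRE lay inside a footprint of 24 bp in replicate 1 and 19 bp in replicate 2. The AP-1 site that follows it and the half-site after that also overlapped footprints in both pools, and the half-site before it did not in either. Over the window of Nr4a1 there were 92 footprints in replicate 1 and 97 in replicate 2, the most of the 9 genes.

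Around Nr4a2 the window was quieter, with 14 and 11 peaks, the only window with fewer peaks in replicate 2, and 9 shared regions of which 4 were distal. The strongest outside its promoters lay in an intron of the gene, 57116721 to 57117020 with a midpoint at -1833 bp from the middle TSS, with 2.08 and 3.02. Around Nr4a3, 20 and 25 peaks gave 17 shared regions, 13 of them distal. Its strongest was 48043341 to 48043640, centred at -1662 bp, where the signal of 6.75 and 7.35 was above that of the promoter in both pools. A neighbour at -2202 bp had 3.83 and 5.01. With promoters taken as 2 kb in place of 1 kb, the first of these counted as promoter and the value of Nr4a3 became 7.06. Further away, the promoter of Stx17, a SNARE protein gene of autophagosomes, had 2.50 and 3.64.

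The region before Nr4a3 (chr4:48043341-48043640, plus strand, GRCm38.p6 genome) is shown for its pair of CRE half-sites, in capitals.
Nr4a3 upstream region: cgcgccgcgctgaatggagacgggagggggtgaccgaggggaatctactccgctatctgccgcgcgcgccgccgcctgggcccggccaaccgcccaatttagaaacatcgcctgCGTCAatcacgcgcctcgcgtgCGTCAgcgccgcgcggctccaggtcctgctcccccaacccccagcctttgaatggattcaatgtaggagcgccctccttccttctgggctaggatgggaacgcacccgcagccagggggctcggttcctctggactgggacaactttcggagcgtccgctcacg
Of the pair, the one at -1674 bp overlapped a footprint in both pools and the one at -1696 bp in neither.

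The 4 EGR genes spanned almost the whole range of the set. Egr1 (ENSMUSG00000038418.7, chromosome 18, 34859823 to 34864984, plus strand) encodes the best known member and has 2 TSSs. Open chromatin ran along the first part of the gene in both pools, with 7.77 and 8.12 at +128 bp from the first TSS, 3.50 and 4.78 at +688 bp, and 5.66 and 7.32 at -86 bp from the second. Between the last 2 of these, replicate 2 had a further peak of 5.09, from 34860741 to 34861000, and replicate 1 had none. All 260 bp of it nevertheless had an FDR of 0.001 or less in replicate 1, so the stretch was cut above background there without a listed peak. In its window, 19 and 26 peaks gave 16 shared regions with 10 distal ones. The strongest outside its promoters was at +26344 bp from the second TSS, 34887441 to 34887660, with 4.24 and 4.72.

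Egr2 (KROX20; ENSMUSG00000037868.15, chromosome 10, 67535475 to 67542188, plus strand) is known for its part in myelination and hindbrain patterning. Its 2 strongest promoter regions were neighbours. One lay before the TSS at 67537869, with its midpoint at -398 bp, and had 3.21 and 3.94. The other, with its midpoint at -98 bp, reached over that TSS and had 3.08 and 3.78. Its window held 11 and 17 peaks and 8 shared regions, 3 of them distal. The strongest outside its promoters was in the promoter of Ado, a thiol dioxygenase gene, with 3.31 and 4.49. A distal region at -44108 bp had 1.20 and 2.23, a log2 ratio of 0.89. At -50208 bp another had 0.416 and 0.935, with the largest log2 ratio of all 114 regions, 1.17.

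Egr3 (ENSMUSG00000033730.4, chromosome 14, 70077203 to 70082614, plus strand) is known for its part in muscle spindle development. Its promoter region, 70076761 to 70076980, had 2.71 and 3.01. The region at -2142 bp, 70074981 to 70075140, was stronger than the promoter in both pools, with 4.10 and 4.95. Its window held 16 and 17 peaks and 14 shared regions, 10 of them distal. At -11062 bp a region had 1.46 and 0.935, the lowest log2 ratio of all 114 regions, -0.65.

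Egr4 (ENSMUSG00000071341.4, chromosome 6, 85511121 to 85513589, minus strand) had the fewest shared regions, the fewest footprints and the weakest promoter peak of the set. Its window held 3 peaks in replicate 1 and 9 in replicate 2 and 3 shared regions. The strongest of these lay in an exon of the gene, 85511347 to 85511560 with a midpoint at +2135 bp, with 0.461 and 0.624. The others, over 30 kb upstream, had 0.253 and 0.232 in the first and 0.342 and 0.464 in the second. Footprints in the window numbered 3 and 11. When each pool was restricted to its strongest 50% of peaks, 0 shared regions were left, and with the shorter of the deposited peak lists 1 was left.

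EGR promoter letters are shown for Egr2 (chr10:67537619-67537868, plus strand) and Egr4 (chr6:85513590-85513839, minus strand), from the RefSeq promoter windows on GRCm38.p6, because both hold CRE half-sites and the first one also the CArG box that SRF binds. Capitals mark these letters. Sequences of Egr1 and Egr3 are not shown.
Egr2 promoter: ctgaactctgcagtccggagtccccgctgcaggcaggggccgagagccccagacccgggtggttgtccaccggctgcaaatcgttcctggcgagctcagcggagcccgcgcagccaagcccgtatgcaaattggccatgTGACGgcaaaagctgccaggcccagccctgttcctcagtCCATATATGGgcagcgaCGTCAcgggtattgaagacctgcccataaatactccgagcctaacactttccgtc
Egr4 promoter: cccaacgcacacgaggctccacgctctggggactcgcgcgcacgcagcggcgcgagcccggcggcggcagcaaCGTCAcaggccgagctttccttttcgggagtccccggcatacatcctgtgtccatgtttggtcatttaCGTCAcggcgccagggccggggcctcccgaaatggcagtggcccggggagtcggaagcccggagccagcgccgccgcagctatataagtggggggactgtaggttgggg

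In Egr2 the half-sites are at -109 and -53 bp and the CArG box at -67 bp from the TSS. A footprint touched 3 of the 10 bases of this CArG box in replicate 1 and 6 in replicate 2. A second CArG box, at -370 bp in the other promoter region and outside the sequence shown, lay under no footprint in either pool. Egr4 has half-sites at -175 and -107 bp, while no peak lay there in replicate 1, and its window has no whole CRE, CArG box or EGR site. In Egr3 a CArG box at -355 bp lay between half-sites at -392 and -341 bp, and all 3 overlapped footprints in both pools. Egr1 had 2 CArG boxes, at -100 and -78 bp from its second TSS, of which the first lay under no footprint and the second touched one by 1 base in replicate 2. Overlapping EGR sites at -603 and -597 bp from that TSS touched the same footprint, which was present in both pools.

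The distal region of Egr2 at -44108 bp (chr10:67493641-67493880, plus strand, GRCm38.p6 genome) is shown because it holds 2 AP-1 sites, in capitals, and differed between the pools. Each site overlapped a footprint in replicate 2 and in replicate 1 neither did.
Egr2 upstream region: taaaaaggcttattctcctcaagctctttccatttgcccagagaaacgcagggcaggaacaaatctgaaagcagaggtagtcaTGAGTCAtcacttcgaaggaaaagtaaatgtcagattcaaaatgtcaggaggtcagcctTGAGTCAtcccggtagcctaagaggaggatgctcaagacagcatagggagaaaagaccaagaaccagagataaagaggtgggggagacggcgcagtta

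Ier2 and Btg2 had strongly open promoters and strong regions close by. Ier2 (ENSMUSG00000053560.4, chromosome 8, 84661331 to 84662852, minus strand) encodes a small nuclear protein. Its promoter region, 84662741 to 84663000, had 6.11 and 7.85. The region next to it, 84663961 to 84664240 at -1249 bp, had 8.27 and 9.35, above the promoter in both pools, and lies within 1 kb of a TSS of the long non-coding RNA gene Gm26664. Another inside its exon at +1131 bp had 5.31 and 6.81. Its window held 18 and 23 peaks, 17 shared regions and 9 distal ones, with the promoter of the tRNA methyltransferase gene Trmt1 at 3.83 and 5.35.

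Btg2 (ENSMUSG00000020423.6, chromosome 1, 134075170 to 134079120, minus strand) encodes an antiproliferative protein that recruits the CCR4-NOT complex, which shortens the poly(A) tails of mRNAs. Its promoter region, 134079041 to 134079420, had 8.97 and 10.98. Downstream at +18109 bp, a distal region from 134060881 to 134061140 had 6.90 and 8.39, and upstream at -13941 bp another had 4.84 and 6.31. The promoter of the non-coding gene Gm38140 at -20211 bp had 6.67 and 7.42. Every one of the 10 peaks in replicate 1 overlapped one in replicate 2, which had 25 peaks, 15 of them its own. Replicate 2 also had more peaks over the whole genome, 146307 against 117371. The genome-wide share of peaks found in 1 pool alone is not given here. The window also had 36 footprints in replicate 1 and 70 in replicate 2, and 3688 bp and 8565 bp with an FDR under 0.05, the largest differences between the pools in the set by number and length. As ratios the differences at Egr4 were larger, with 3 and 11 footprints and 625 bp and 2117 bp. The strongest of the peaks of replicate 2 alone had 1.89 at -4511 bp, where replicate 1 had 0 bp at that FDR.

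The Btg2 promoter (chr1:134079156-134079405, minus strand, RefSeq promoter window on GRCm38.p6) is shown for its whole CRE and EGR site, in capitals. RefSeq starts this gene slightly upstream of the GENCODE TSS, from which distances are counted.
Btg2 promoter: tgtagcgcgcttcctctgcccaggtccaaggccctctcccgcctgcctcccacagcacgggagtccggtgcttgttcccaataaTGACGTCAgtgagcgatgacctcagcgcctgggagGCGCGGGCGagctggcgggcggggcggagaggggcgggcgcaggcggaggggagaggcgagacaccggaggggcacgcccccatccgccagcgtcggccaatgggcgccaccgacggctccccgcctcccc
The CRE is at -198 bp and lay inside the same footprint of 37 bp in both pools, although the promoter peak of replicate 1 did not reach it. The EGR site at -162 bp lay under no footprint. The whole CRE of Ier2, at -42 bp, lay inside footprints of 36 bp in replicate 1 and 32 bp in replicate 2.

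**Figure D3:**
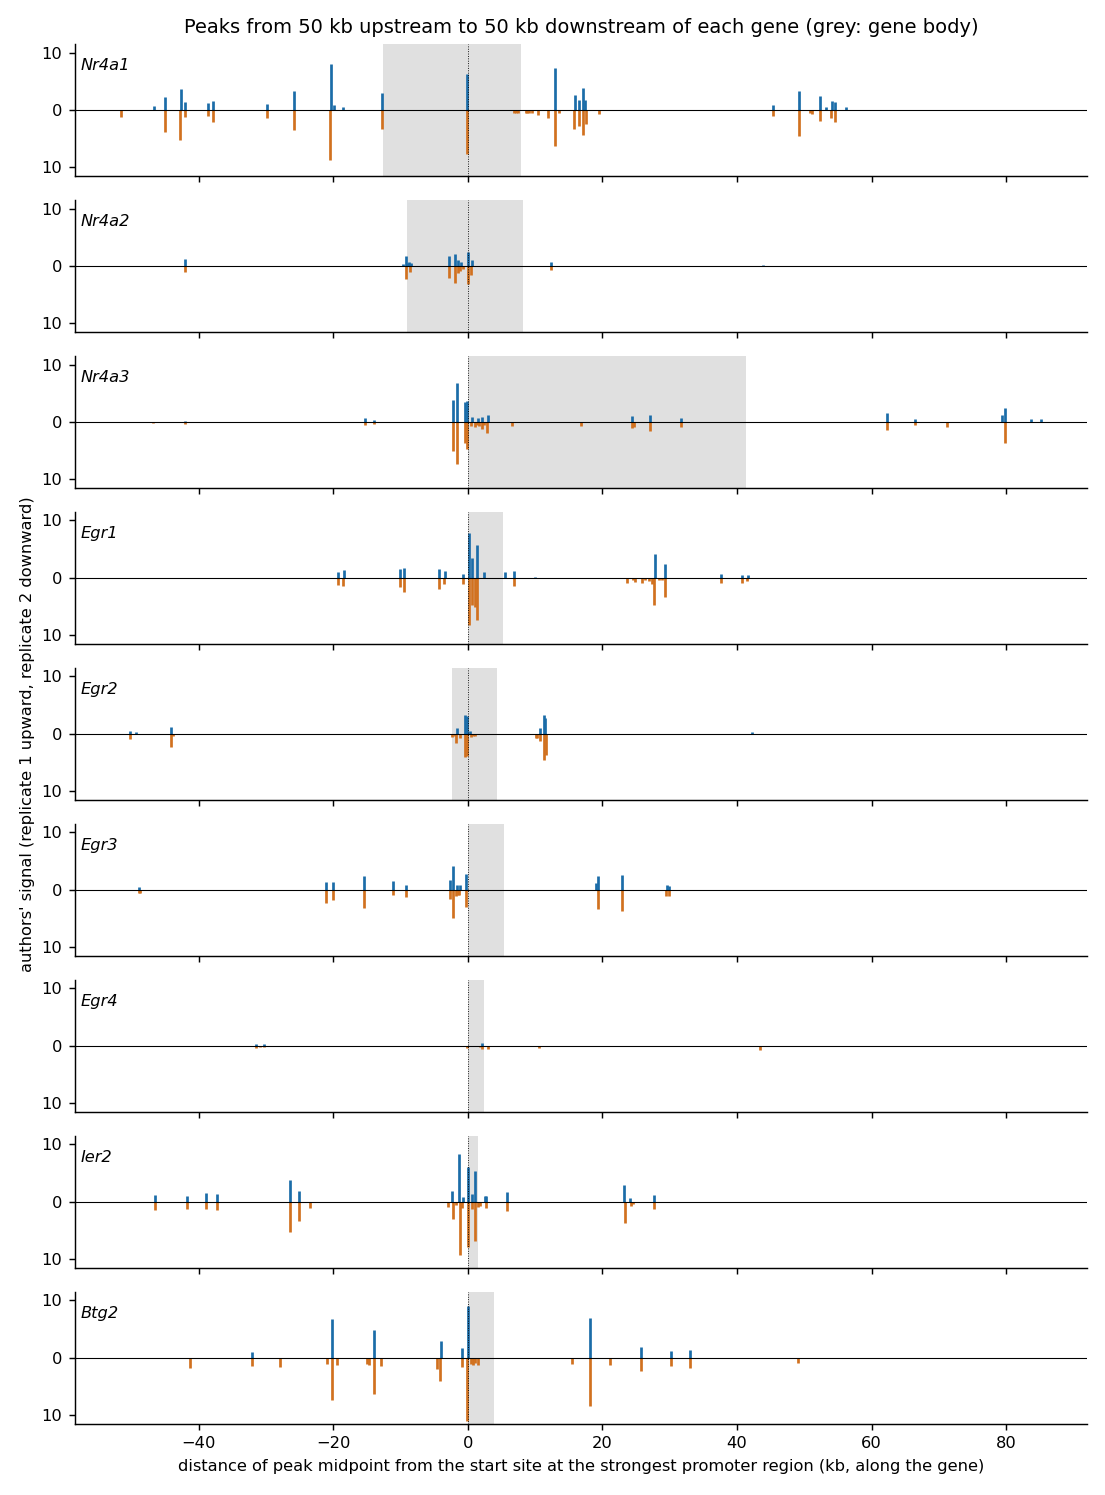
Peaks of each gene's window by distance of the peak midpoint from the TSS at the strongest promoter region (kb, along the gene), with bar height the authors' signal, replicate 1 upward in blue and replicate 2 downward in orange, and the gene body in grey. In the windows of Nr4a1, Nr4a3, Egr2, Egr3 and Ier2 a region outside the gene's promoters is higher than the promoter, and the window of Egr4 is nearly empty.

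Over the 9 windows together there were 136 peaks in replicate 1 and 187 in replicate 2, which gave 114 shared regions, none of them in more than 1 window. A window held a median of 14 shared regions, 9 of them distal, against medians of 9 and 5 over all protein-coding genes and of 11 shared regions over those with a promoter peak in both pools. Per 100 kb of window the medians were 12.0 for the 9 genes, 6.20 for all genes and 7.65 for genes with a promoter peak in both pools. Egr2 and Egr4, with 8 and 3 regions, were below the median of all genes, and Nr4a2 was at it. Of the 114 regions, 24 were in promoters of the 9 genes, 21 in promoters of other genes and 69 (60.5%) were distal, against 74.0% of all shared regions. The distal ones were 6 in exons, 19 in introns and 44 between genes.

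Regions near the 9 genes had a median signal of 1.60 (mean of the pools), against 0.926 for all shared regions. By rank, 27 of the 114 (23.7%) were among the top 10% of all shared regions, and 21 (18.4%) were below the overall median. The regions in promoters of the 9 genes had medians of 2.61 in replicate 1 and 3.08 in replicate 2, and the distal ones between genes 1.52 and 1.57. At 5 of the 8 genes (Nr4a1, Nr4a3, Egr2, Egr3 and Ier2) the strongest region outside the gene's promoters had more signal than the promoter in both pools, against 56.7% of all genes with a promoter peak in both pools, a share near that of the 8. With promoters of 2 kb the regions next to Nr4a3 and Ier2 count as their own promoters, and the number was 3 of 8, against 56.6%. Since promoters had the higher signal and made up a larger share of these 114 regions than of all shared regions, the part of that share in the difference was not tested.

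In the signal of shared regions, the pools repeated each other near these genes about as they did elsewhere. Over the 114 regions the log2 ratio (replicate 2 over replicate 1) had a median of 0.33 (SD over regions 0.28), against 0.35 over all shared regions, and 95 of 114 (83.3%) were higher in replicate 2, against 83.4%. By window the medians lay between 0.16 for Nr4a3 and 0.44 for Egr4. Peaks found in 1 pool alone numbered 17 of 136 in replicate 1, with a median signal of 0.513, and 67 of 187 in replicate 2, with 0.647. The share of such peaks over the whole genome is not given here, so these counts cannot be compared with other genes. Peaks that overlapped the other pool had medians of 1.46 in replicate 1 and 1.64 in replicate 2, so most unshared peaks were weak, apart from the Egr1 peak of 5.09.

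**Figure D4:**
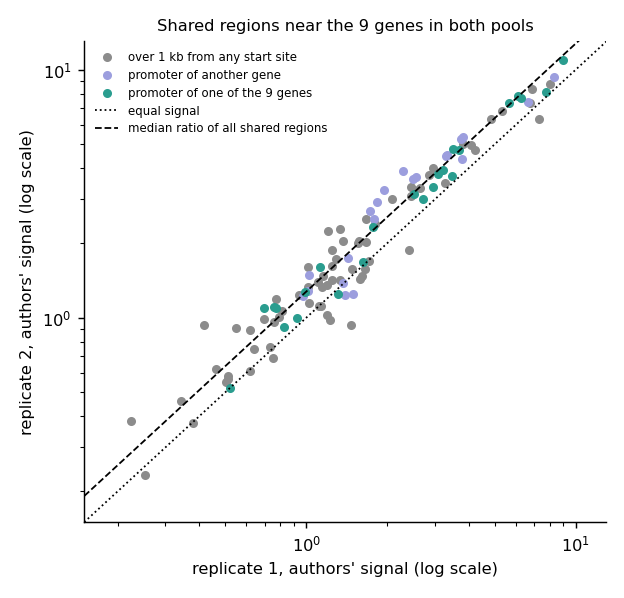
Signal of the 114 shared regions in replicate 1 (horizontal) and replicate 2 (vertical), both log axes, coloured by whether they lie in a promoter of the 9 genes, in a promoter of another gene or over 1 kb from any TSS. Most points lie near the dashed line of the median ratio of all shared regions, and 19 lie below the dotted line of equal signal.

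Footprints numbered 410 in replicate 1 and 493 in replicate 2 over the 9 windows, and 343 and 433 of them lay in a peak of the same pool. Of those in replicate 1, 57.8% overlapped one of replicate 2, and 46.9% the other way, against 51.1% and 42.6% over the whole genome. A footprint in both pools was present in 97 of the 114 regions (85.1%), against 78.6% of all shared regions. Within promoters the numbers did not follow the signal: Egr1 had 27 and 22 footprints within 1 kb of a TSS, Nr4a2, the weakest of the 8 promoters, had 18 and 20, and Ier2 had 5 and 5. Longer promoters with several TSSs can hold more footprints, and the medians were 7 and 8 over all genes with a promoter peak in both pools.

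**Figure D5:**
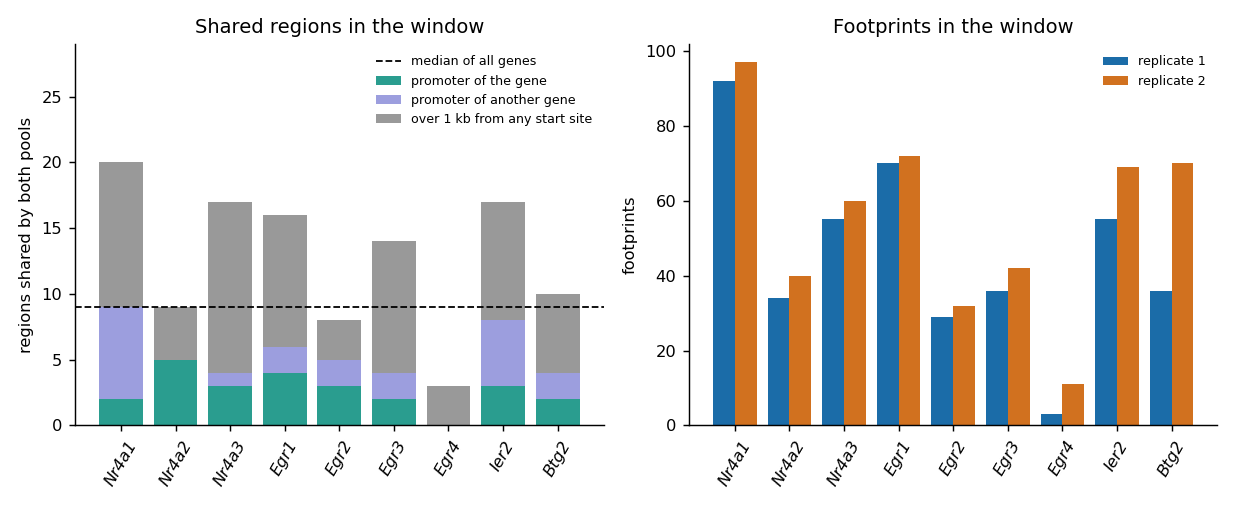
Left, shared regions in the window of each gene, stacked by location, with the median of all protein-coding genes, 9, as a dashed line. Right, footprints in the same windows in replicate 1 (blue) and replicate 2 (orange), which run between 3 and 11 at Egr4 and 92 and 97 at Nr4a1.

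Letters of the CRE and of the CArG box recurred in the open promoters of these genes. Motifs were searched on both strands over the whole of each shared promoter region, and a whole CRE also counts as a pair of half-sites. A whole CRE was found at 3 of 8 genes (Nr4a2, Ier2 and Btg2), against 4.65% of the 13511 protein-coding genes with a shared promoter region, and a half-site at 8 of 8, against 45.5%. A CArG box was found at 3 of 8 (Egr1, Egr2 and Egr3), against 2.13%. No gene had both a CArG box and a whole CRE. EGR sites were found at 4 of 8 (Nr4a1, Egr1, Egr3 and Btg2), against 16.8% of genes. A MEF2 site, another element of activity-dependent promoters, was found at Nr4a1 alone, with 3 matches, against 0.503% of genes. These counts are descriptions of 8 chosen genes, several of which have longer open promoters than most.

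In windows of 300 bases around RefSeq starts, the share with these letters was 2.31% for the CRE, 24.2% for the half-site, 1.51% for the CArG box and 7.81% for the EGR site, over 20150 windows. Of the 6 genes with such a window, 1 (Btg2) had a whole CRE there, 6 a half-site, 1 (Egr2) a CArG box and 3 (Nr4a1, Nr4a2 and Btg2) an EGR site. A gene was counted if at least 1 of its windows held the letters, and Egr2 has several, whereas the shares are per window. The letters that NR4A receptors bind, the NBRE (AAAGGTCA), are rare in promoters at large. They were found in 0 of 8 promoters, against 2.02% of genes, a count that 8 genes cannot set apart from that share, and over all 114 regions there was 1 match, in an intron of Bin3 in the Egr3 window, with no footprint. The related site of NR5A1 (CAAGGTCA), the receptor that governs steroid cell identity, was found in 0 of 8 promoters, against 3.80% of genes. AP-1 sites were found at 1 promoter, that of Egr3, against 12.4%, and CCAAT boxes at 7 and GC boxes (GGGCGG) at 8, against 50.3% and 75.1%. TATAAA was found at Nr4a1 and Nr4a2, against 7.62%.

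Within the 200 bases around the midpoint of distal regions, the whole CRE was found in 2 of 69 (2.90%), against 0.607% of all distal regions, and the half-site in 23.2%, against 11.2%. AP-1 sites were found in 21.7%, against 25.9%, NR5A1 sites in 7.25%, against 7.15%, and the NBRE in 0%, against 3.16%. GC boxes were found in 21.7% of these distal regions, against 6.65%. Their median GC content was 56.0%, against 49.5% for all distal regions, and how far base content sets the share of GC-rich letters was not tested. In all, 5 whole CREs lay in the 114 regions, and every one of them overlapped a footprint in both pools, against 71.5% of 1152 matches in all shared regions. Of 65 half-sites, 29 (44.6%) did, against 24.9% of 20782 matches in all shared regions. The 65 include the 10 half-sites that make up the whole CREs, and of the other 55, 19 (34.5%) did. The 24.9% still includes half-sites of whole CREs, so it is not a like share for these 55. Of 7 CTCF sites, letters bound by the insulator protein, all 7 did, against 76.7% of all matches. Sets of 5 and 7 matches are too small to be set apart from such shares. For other letters the share with a footprint in both pools went both ways. GC boxes (23 of 73, against 36.2%) and AP-1 sites (5 of 25, against 26.3%) had lower shares. NR5A1 sites (0 of 6, against 29.8%) and ETS sites, CCGGAAG (3 of 13, against 31.3%), did too. EGR sites (5 of 9, against 39.2%), CCAAT boxes, CArG boxes, TATAAA and MEF2 sites had higher ones.

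Lists of genes that act before and after these 9 are read against the 61.9% of all protein-coding genes with a promoter peak in both pools. Of 28 input genes (SRF and its partners, CREB and its coactivators, and kinases of the cAMP, calcium and ERK pathways), 27 (96.4%) had one, with a median signal of 3.49. The highest were Rps6ka5, the gene of the kinase MSK1 that phosphorylates CREB, at 13.6 and 15.4, and Mrtfa, an SRF coactivator gene, at 11.4 and 13.9. The lowest were Elk3, an ETS factor gene, at 0.624 and 0.895, and the kinase gene Rps6ka4 at 1.31 and 1.77. Camk4, a calcium-dependent kinase gene, had a peak in replicate 2 alone, of 0.376. The median of these inputs was near that of all genes with a promoter peak in both pools, 3.54.

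Of 18 partners and relatives, 17 (94.4%) had a promoter peak in both pools, with a median of 4.94. Btg1, a relative of Btg2, had 12.4 and 15.1 and Prmt1, the gene of a methyltransferase that BTG proteins bind, 13.6 and 13.7. Rxrg, one of the RXR genes whose products pair with NR4A receptors, had 0.401 and 0.432, and Nr5a2, a relative of Nr5a1, 0.312 and 0.448. Btg4, a gene of oocytes, had no promoter peak in either pool.

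The 8 genes had a median promoter signal of 5.60, against 6.65 for 30 other immediate early genes, all 30 of which had a promoter peak in both pools. The highest values of the 30 were at Per1, a clock gene, and Jun, with 15.9 and 17.4 at the first and 15.4 and 16.9 at the second. The lowest were at Npas4, a neuronal gene, with 0.349 and 0.344, close to Egr4 in level, and at Ccn2, a matrix protein gene, with 0.810 and 0.759. The membership of all these lists was chosen with earlier results of these data known, and no test compares them.

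Of 11 steroid and catecholamine genes that NR4A or EGR factors are known to act on or that mark the cells they act in, 8 (72.7%) had a promoter peak in both pools, close to the share of all genes, with a median of 2.90. Star, which encodes the carrier of cholesterol into the mitochondrion, had 5.44 and 6.52, and Cyp21a1, the 21-hydroxylase gene, had 5.27 and 4.72. Hsd3b6 had 0.639 and 0.967 and Chga, the chromogranin A gene, 0.706 and 1.22. Neither pool had a promoter peak at Cyp11b2, the aldosterone synthase gene, or at Hsd3b1. Pnmt had one of 0.695, in replicate 2 alone. Among the immediate early genes, Egr3 and Nr4a2 had mean promoter signals just under that median, at 2.86 and 2.83.

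For each of the 8 genes, the protein-coding gene most like it was sought over 3 values scaled to unit SD (log2 mean promoter signal, number of shared regions in the window and number of promoter footprints, each from the 2 pools). The promoter signals in the 2 pools and the distance in SD follow each name. Btg2 was closest to Ints9 (9.24 and 10.79; distance 0.0045), Egr2 to Alg3 (2.86 and 4.12; 0.026) and Egr3 to Nr5a1 (2.55 and 3.36; 0.033). Ier2 was closest to Tmem115 (6.25 and 7.19; 0.041), Nr4a1 to Grn (7.20 and 6.95; 0.071) and Nr4a3 to Coq10a (4.36 and 4.43; 0.12). Nr4a2 was closest to Cmtm3 (3.10 and 3.35; 0.15) and Egr1 to Gamt (7.58 and 9.14; 0.16). The likeness rests on 2 pools and describes levels only.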

How the data were processed

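The deposited files of both pools, on mm10 per the labels, give 2 peak lists, footprints and a table of FDR values per pool. The choice of aligner and callers, and their settings, were not given in the sources used here. The authors' peak value is a signal of 0 or more that is not stated to be normalized. All signals of a pool fall on multiples of one step, 0.00743 (replicate 1) or 0.00799 (replicate 2), within 0.05 of it. The deposited table lists FDR, an adjusted p-value, for intervals under 0.05. Every footprint has the deposited value 0.01, so footprints could not be ranked.

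The longer peak list was used. Peaks of both pools that overlapped by at least 1 bp were merged into shared regions, whose signal per pool is that of the highest peak. Promoters are 1 kb on either side of any TSS of GENCODE vM21 basic on 21 chromosomes. Motifs were matched as consensus letters, and a footprint was counted if it overlapped a match by 1 bp or more. Scripts used Python 3.11.15, numpy 2.4.6, pandas 2.3.3 and matplotlib 3.10.9 and were tested on simulated data.

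With 1 group of 2 pools and no control, no test was made: counts stand beside the same counts over all genes or regions, and errors are SDs over the pools. RefSeq promoter windows matched 6 of the 9 genes, and Egr1, Egr3 and Ier2 had no entry. The members and lists were chosen with earlier results of these data known. The genes named are all 9 members, the strongest region outside each one's promoters, the gene most like each, and from each list the 2 highest and 2 lowest promoters and those without one in both pools. Regions and marker genes named beyond these were chosen after their values were seen. One list of marker genes is not reported here.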

Additional observations from a re-analysis of the deposited data

How the results depend on the processing

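The count of genes with a promoter peak in both pools was 8 under all alternatives run on the peak list, promoter width or annotation, and was 8 in replicate 1 and 9 in replicate 2 on their own. The median promoter signal, 5.60, was 7.02 with promoters of 2 kb, 3.69 with the gene record start alone and 9.13 with the sum of promoter peaks; each widens, narrows or adds up the peaks that count. The 114 shared regions became 180 with windows of 100 kb and 83 with windows of 25 kb, and each pool alone gave 136 to 187 peaks. They became 80 with the shorter peak list and 97 with the strongest 50% of peaks. Where peaks had to overlap by 50% of each, 100 were left. The whole CRE was found at 3 genes and the half-site at 8. With replicate 1 alone the CRE count was 2, because its Btg2 peak ends before the CRE. Of 48 single promoter signals with both pools in use, 35 moved by less than the spread of the pools, and 56 of 72 window counts moved by less than 1.5 times. With promoters of 500 bp, the shorter peak list or equal numbers of the strongest peaks, no promoter signal moved at all. Since the highest peak counts, leaving out weak peaks could hardly move it. With the sum of promoter peaks every one moved beyond that spread. With promoters of 2 kb those of Nr4a3 and Ier2 did, and with the gene record start those of Nr4a1, Nr4a2 and Egr2. Btg2 came first under every alternative run except the sum of promoter peaks, where Egr1 did. No paired analysis was possible because there is 1 group. The depth of the libraries is unknown, so weak peaks such as those at Egr4 cannot be called absent in the other pool.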
